A study of Homo sapiens with 12 samples.

Results

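Keratins are the intermediate filament proteins of epithelial cells, and the genes described here are all rows of the gene table whose symbol is KRT followed by a number and, in some, a letter. There were 56 such genes among 22506. RNA sequencing had been done on 4 human cell lines (H1703, H1299, CHAGO, CALU) that the submitters call lung squamous cell carcinoma lines. Each line was sequenced in 3 states: adherent parental cells, tumor-initiating cells (TICs), and TICs in which PRKCI, the gene of the atypical protein kinase C iota, had been knocked down (knockdown TICs). There was 1 library for each line and state, 12 in all, so the 4 lines served as the replicates of a state, and each line was a single culture per state as far as the labels say. How TICs were obtained, how PRKCI was knocked down and what the parental and unperturbed TIC libraries received is not stated by the labels. PRKCI knockdown of parental cells, which the design text lists, was not analysed here.

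A keratin filament is built from a type I and a type II keratin in equal parts, and epithelia differ in the pairs they make. KRT8 with KRT18, and KRT7 with KRT19, are typical of simple and glandular epithelium. KRT5 with KRT14 or KRT15 mark the basal layer of stratified epithelium, KRT6 with KRT16 or KRT17 appear in wounded or hyperproliferative epithelium, and KRT1 with KRT10 or KRT4 with KRT13 appear in suprabasal layers. Squamous carcinomas of the lung commonly make KRT5, KRT6 and KRT14. In GENCODE release 29, 27 of the 56 genes lie on chromosome 12, which carries the type II cluster and the type I gene KRT18, and 29 on chromosome 17, which carries the type I cluster. KRT42P, matched by its symbol, is a pseudogene.

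The promoter bases of 4 members are printed because the results turn on them: KRT10 led in one line, KRT8 had the smallest p of the keratins in the test between lines, and KRT5 and KRT75 had reads mostly in the TIC libraries of a single line. Each run is the 250 bases before the RefSeq start site (GRCh38.p14), 5′ to 3′ on the gene's strand. The positions are chr17:40822615-40822864 for KRT10, chr12:52926470-52926719 for KRT8, chr12:52520395-52520644 for KRT5 and chr12:52434372-52434621 for KRT75, all on the minus strand. Capitals mark a match, on either strand, to the TATA box TATAAA, the AP-1 site TGANTCA or the SP1 site GGGCGG; no match overlapped another.
KRT10: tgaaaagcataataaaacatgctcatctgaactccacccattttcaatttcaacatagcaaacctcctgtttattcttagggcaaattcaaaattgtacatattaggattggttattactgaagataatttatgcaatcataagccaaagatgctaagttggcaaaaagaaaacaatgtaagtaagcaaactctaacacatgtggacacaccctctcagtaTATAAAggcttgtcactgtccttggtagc
KRT8: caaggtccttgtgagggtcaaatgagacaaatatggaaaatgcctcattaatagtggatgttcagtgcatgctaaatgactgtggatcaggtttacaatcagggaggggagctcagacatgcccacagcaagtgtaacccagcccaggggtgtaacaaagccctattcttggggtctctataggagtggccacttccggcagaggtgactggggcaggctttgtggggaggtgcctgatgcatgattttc
KRT5: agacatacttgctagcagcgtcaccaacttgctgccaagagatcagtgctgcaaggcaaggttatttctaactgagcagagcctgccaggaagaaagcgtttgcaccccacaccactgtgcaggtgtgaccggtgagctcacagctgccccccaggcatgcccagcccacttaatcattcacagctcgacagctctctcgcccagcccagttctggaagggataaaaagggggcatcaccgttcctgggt
KRT75: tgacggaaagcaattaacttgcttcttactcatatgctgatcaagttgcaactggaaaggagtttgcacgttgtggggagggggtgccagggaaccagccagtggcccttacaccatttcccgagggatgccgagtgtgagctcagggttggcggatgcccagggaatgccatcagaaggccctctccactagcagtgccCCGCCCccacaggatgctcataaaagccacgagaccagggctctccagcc
KRT10 held TATAAA beginning 29 bases before the start, KRT75 held the SP1 letters beginning 50 bases before it, and KRT8 and KRT5 held none of the 3 in this window. For KRT10 and KRT8 the bases just after the RefSeq start are not in the principal GENCODE transcript, so these windows may not lie at the start used there. RefSeq gave a promoter for 34 members, of which 21 held TATAAA, 4 held GGGCGG and 0 held TGANTCA. Among 35116 promoter windows of all genes the shares were 10.7%, 42.6% and 6.57%. A match is a stretch of letters and not a shown binding site.

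Total counts per library ran from 21165030 to 36060810 reads in H1703 and H1299, and from 63759326 to 91763055 in CHAGO and CALU, which were deeper. Levels are given as CPM, reads scaled to a common library size and by edgeR's TMM factor, and 3 reads corresponded to 0.0346 to 0.135 CPM. PRKCI, the check of the knockdown, stood at 58.1, 25.8, 23.2 and 41.5 CPM in knockdown TICs of H1703, H1299, CHAGO and CALU against 342, 199, 608 and 237 in TICs, and fell by 3.15 ± 0.37 on the log2 scale (SE, edgeR quasi-likelihood adjusted p = 0.0489, lower in 4 of 4 lines). The markers of squamous identity were low or absent in most libraries: the 7 non-keratin genes of the squamous marker list summed to between 0 (H1703 parental) and 99.1 CPM (CHAGO knockdown TICs), CALML3 was at 0 in all 12 libraries, and TP63, the transcription factor of squamous basal cells, was at or below 0.225 CPM in the 6 libraries of H1703 and H1299. Of the 11 leukocyte markers CD3E, CD3D and MS4A1 had no read, and so did CLDN5 and EMCN of 8 endothelial markers. The leukocyte list summed to 417 to 810 CPM in H1703 and 264 to 531 in H1299, most of it CD68, a lysosomal protein, which was higher in TICs than in parental cells in 4 of 4 lines. The fibroblast list summed to 2588 to 3109 CPM in H1703, most of it PDGFRA (2554 to 3076 CPM). CD74 reached 172 and PECAM1 44.96 CPM in CALU TICs, and the part of these markers in the keratin values was not tested. RNA was taken from bulk cultures, so fewer cells of a kind and less RNA per cell cannot be told apart in any value given here.

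Of the 56 keratins, 33 had at least 1 read in some library and 23 had none. The 23 comprised all 8 inner root sheath keratins of hair follicles, 8 of the 17 hair keratins, 6 suprabasal keratins (KRT1, KRT2, KRT3, KRT4, KRT24 and KRT76) and KRT20 of intestinal and urothelial epithelium. A level of 1 CPM was reached in at least 1 library by 21 members, and 26 reached 0.1 CPM. edgeR's filter on low counts, which asks for a level worth 10 reads in a library of median depth in at least 4 libraries, kept 11 members for the tests: KRT7, KRT8, KRT10, KRT15, KRT16, KRT17, KRT18, KRT19, KRT34, KRT80 and KRT81. The other 22 members with reads did not reach it, 13 of them with reads in 1 line, 7 in 2 lines, and KRT32 and KRT13 in 3 and 4 lines at low levels. Their highest level ran from 0.0115 CPM for KRT77 to 43.6 CPM for KRT6A.

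**Figure D1:**
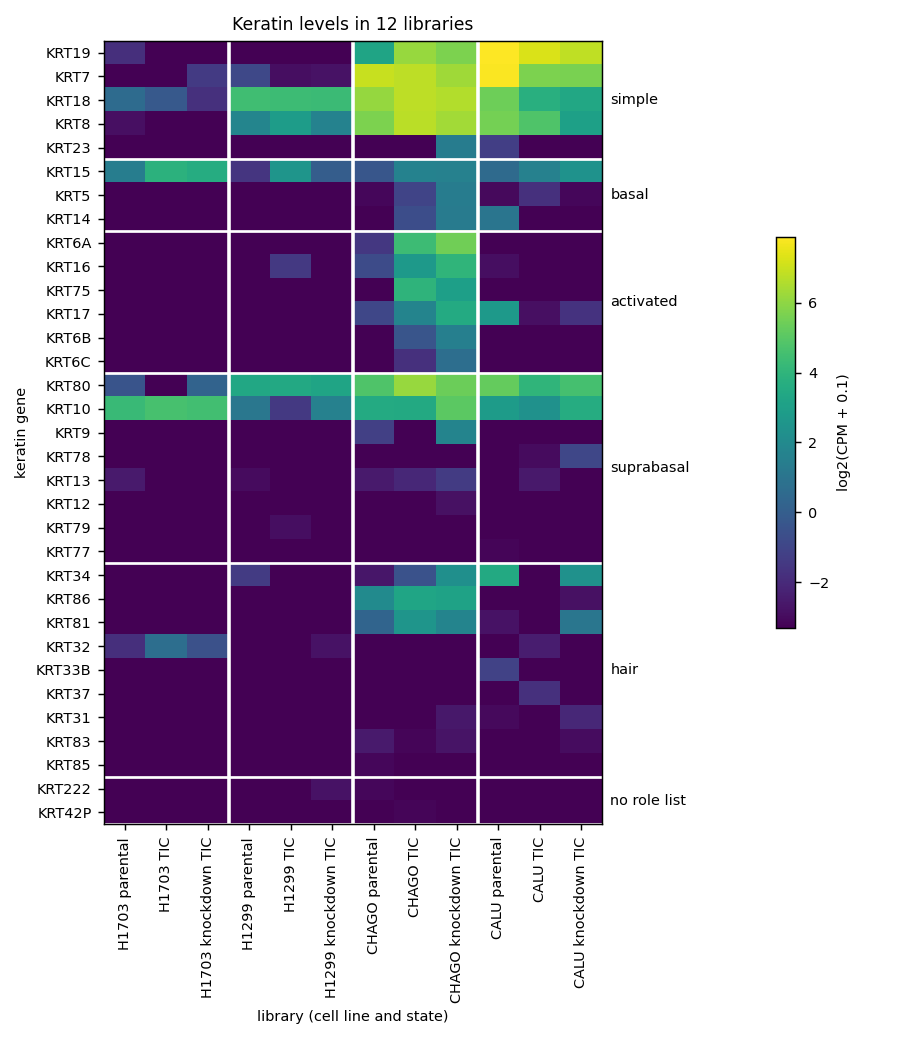
Levels of the 33 keratins with at least 1 read, as log2(CPM + 0.1) by colour, in 12 libraries (columns, 3 states for each of 4 lines) and grouped by role (rows). Simple keratins fill the CHAGO and CALU columns, KRT10 and KRT15 lead in H1703, and the activated keratins are coloured mainly in the TIC and knockdown TIC columns of CHAGO.

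The summed keratin level separated the lines. It was 24.5, 42.0 and 36.8 CPM in parental cells, TICs and knockdown TICs of H1703, and 38.8, 44.5 and 36.3 in H1299. In CHAGO it was 299, 541 and 495 CPM, and in CALU 622, 267 and 230. Every CHAGO and CALU library was above every H1703 and H1299 library, while within CHAGO the 2 TIC libraries were the higher and within CALU the parental library was. By state the sums overlapped throughout: 246 ± 280 CPM in parental cells, 224 ± 236 in TICs and 199 ± 217 in knockdown TICs (SD, n = 4 lines).

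Between lines, 9 of the 11 tested keratins differed (edgeR quasi-likelihood F test of the 3 line terms, adjusted p under 0.05), against 45.4% of all 14008 genes tested. With no filter on low counts 12 of the 33 members with reads passed, against 33.8% of 18462 genes. KRT7, KRT17, KRT19 and KRT81 met the filter mainly through CHAGO and CALU libraries. KRT16 met it through CHAGO and 8 reads in H1299 TICs. The filter thus had a part in the 9 of 11, and that share is not read as a trait of keratins. DESeq2 and limma each called 10 of 11, against 56.5% and 55.0% of all genes. The 3 states stand in for replicates of a line in this test, so its p-values measure the spread between libraries of single cultures. KRT8 had the smallest adjusted p (0.000107), followed by KRT7 (0.000189), KRT18 (0.000393), KRT19 (0.000585), KRT80 (0.00503) and KRT10 (0.00849), while KRT16 (0.0261), KRT17 (0.0412) and KRT81 (0.0464) were closer to the threshold. KRT15 (0.0801) and KRT34 (0.0809) did not pass, although KRT15 did so by DESeq2 (adjusted p = 0.0148) and limma (adjusted p = 0.0324). KRT10 lost its call without the TIC libraries (0.0509) or without the knockdown TIC libraries (0.0801), and KRT17 lost its own without the CALU knockdown library (0.0688). KRT16, KRT17 and KRT81 were not among the calls in any of the 3 fits that left out a state, where 7 or 8 keratins were tested.

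Among the simple-epithelial keratins, KRT8, the type II partner in most simple epithelia, had 1 read in the H1703 parental library and none in the other 2 of that line. In H1299 it stood at 3.30, 7.20 and 3.001 CPM in parental cells, TICs and knockdown TICs, in CHAGO at 51.1, 106 and 81.7, and in CALU at 46.0, 27.5 and 8.09. The order of the line means was CHAGO (79.6 ± 27.5 CPM, SD, n = 3 libraries), CALU (27.2 ± 18.9), H1299 (4.50 ± 2.34) and H1703 (0.0121 ± 0.0210). CALU and H1299 approached each other, with the CALU knockdown TICs at 8.09 and the H1299 TICs at 7.20 CPM. KRT18, its type I partner, stood at 1.42, 0.765 and 0.193 CPM in H1703, at 21.9, 20.2 and 20.1 in H1299, at 68.3, 108 and 95.3 in CHAGO, and at 42.5, 13.2 and 10.5 in CALU. The 3 H1299 libraries lay within 2 CPM of each other and inside the range of CALU, so these neighbours in the order did not separate, whereas all CHAGO libraries were above and all H1703 libraries below the rest. GENCODE lists 50 pseudogenes of KRT8 and 68 of KRT18, and reads shared with those copies could have been lost or misplaced in counting.

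KRT7, found with KRT19 in glandular and ductal epithelium, was near absent in H1703 (0, 0 and 0.270 CPM) and H1299 (0.442, 0.0323 and 0.0441). It stood at 124, 108 and 78.3 CPM in CHAGO and at 229, 50.5 and 50.1 in CALU. The 6 libraries of CHAGO and CALU were thus all above 50 CPM and the other 6 all below 1 CPM. KRT19, the smallest keratin and a type I protein, had reads in 1 library of H1703 (0.182 CPM, parental) and in none of H1299. In CHAGO it stood at 9.23, 70.5 and 51.8 CPM, and in CALU at 237, 151 and 112, so that the 3 CALU libraries were above all others. KRT23, a less common type I keratin of simple epithelium, had 192 reads in CHAGO knockdown TICs and 28 in CALU parental cells and none elsewhere, and KRT20 had none.

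**Figure D2:**
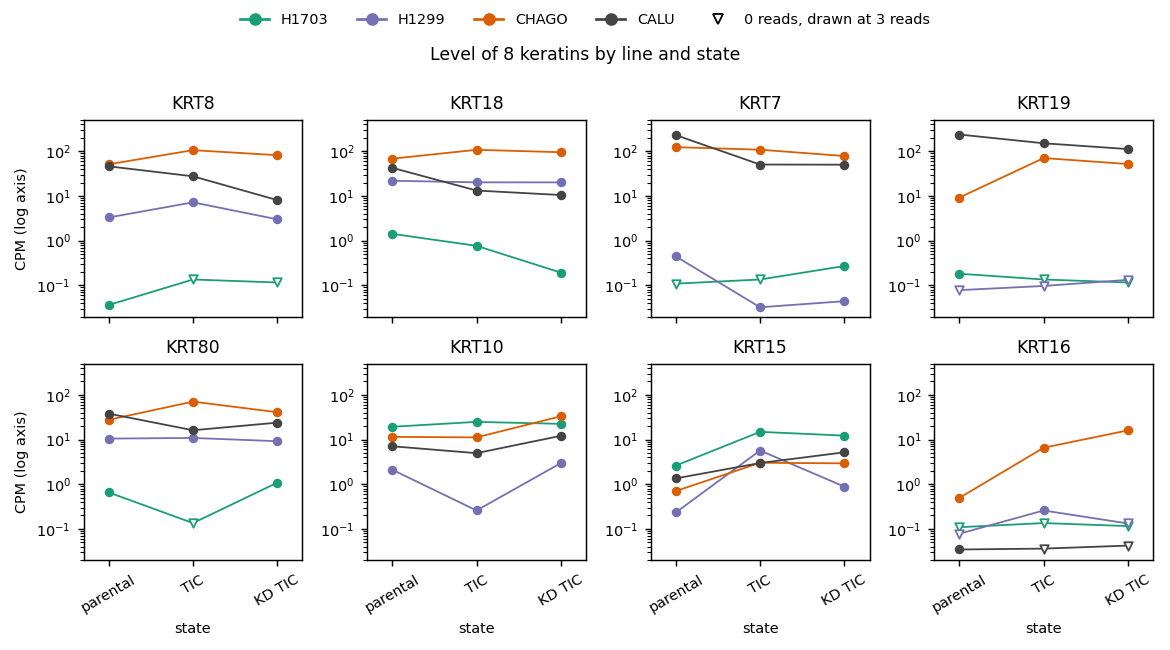
Level of 8 keratins (CPM, log axis) by state, with a line for each of the 4 cell lines and open triangles where a library had 0 reads, drawn at the level of 3 reads. KRT7 and KRT19 are above 1 CPM in CHAGO and CALU alone, the KRT18 values of H1299 lie inside the range of CALU, and KRT15 is higher in TICs than in parental cells in all 4 lines.

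Partner ratios within a library compare libraries without comparing genes. The reads of KRT8 over those of KRT18 were 0.151, 0.357 and 0.149 in parental cells, TICs and knockdown TICs of H1299. They were 0.749, 0.982 and 0.857 in CHAGO and 1.08, 2.08 and 0.770 in CALU. The ratio was lower in H1299 than in the other 2 lines in all 3 states, and in each of these lines it was highest in TICs. KRT8 and KRT18 overlap on opposite strands in GENCODE, and the strand setting of the counting is not given. Reads from their overlap may therefore not be told apart. KRT7 over KRT19 was 13.4 in CHAGO parental cells and 1.54 and 1.51 in the 2 CHAGO TIC libraries, where KRT19 was higher. In CALU it was 0.969, 0.334 and 0.447. H1703 had fewer than 10 reads of KRT8 and both lines H1703 and H1299 too few of KRT19, so no ratio was formed there.

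Among the suprabasal keratins, KRT10, which pairs with KRT1 in differentiating epidermis, was present in all 12 libraries while KRT1 had no read in any. KRT10 stood at 19.3, 24.8 and 22.4 CPM in H1703, at 2.11, 0.258 and 2.96 in H1299, at 11.5, 11.2 and 33.1 in CHAGO and at 7.07, 4.95 and 12.1 in CALU. H1299 was lowest in every state, and the value of its TICs rested on 8 reads. The gene overlaps TMEM99 on the opposite strand in GENCODE, and since the strand setting of the counting is not given, reads of the pair cannot be told apart. KRT80, a type II keratin of many epithelia, stood at 0.654, 0 and 1.08 CPM in H1703, at 10.5, 10.8 and 9.18 in H1299, at 27.7, 70.5 and 40.8 in CHAGO and at 38.0, 16.1 and 23.9 in CALU. KRT13, the type I keratin of mucosal squamous epithelium, had 47 reads in all, and at most 0.291 CPM (22 reads, CHAGO knockdown TICs). KRT9, the keratin of palm and sole, had 22, 0 and 245 reads in the 3 CHAGO libraries and none elsewhere.

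Per kilobase of transcript, with lengths from GENCODE, the leading keratin differed by line. KRT10 took 82.9%, 73.5% and 76.6% of the summed keratin CPM per kilobase in parental cells, TICs and knockdown TICs of H1703. KRT18 led in H1299 with 70.9%, 63.0% and 70.4%. KRT7 led in CHAGO parental cells (43.7%), with KRT18 next (27.1%), whereas KRT18 led in CHAGO TICs (24.2%) and knockdown TICs (23.2%). KRT19 led in CALU with 45.3%, 65.3% and 58.9%, followed each time by KRT7. The share of KRT15 is uncertain, because its longest GENCODE transcript is 5237 bases.

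By role, simple keratins supplied 84.3%, 72.6% and 62.5% of the keratin reads in parental cells, TICs and knockdown TICs of CHAGO (95% Wilson intervals 83.8 to 84.8, 72.2 to 73.0 and 62.0 to 63.0, counting error only). In the same libraries the activated keratins (KRT6A, KRT6B, KRT6C, KRT16, KRT17 and KRT75) supplied 0.391%, 8.60% and 16.9%. KRT75, a keratin of the hair follicle, gave 1276 of the 3804 activated reads in CHAGO TICs and 606 of the 6313 in knockdown TICs. In CALU the simple keratins supplied 89.3%, 90.8% and 78.7%, and in H1299 66.1%, 61.6% and 63.9%. In H1703 they supplied 6.69%, 1.82% and 1.26%, and the basal keratins, all of them KRT15 reads, 10.7%, 35.3% and 33.3%.

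For the comparison of TICs with parental cells, 0 of the 11 tested keratins were called by edgeR, against 0.0286% of all genes tested (4 of 14008). At an unadjusted p under 0.05 there was 1, KRT15, against 11.8% of all genes. DESeq2 called 1, again KRT15, against 4.14% of all genes, and limma on the authors' mode-normalized values called 0, against 0.307%. The median log2 fold change of the 11 was -0.36, against -0.02 for all tested genes, with 5 positive and 6 negative.

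KRT15, a type I keratin of basal cells and of slow-cycling cells in the hair follicle, had 72, 9, 47 and 117 reads in parental cells of H1703, H1299, CHAGO and CALU. In TICs it had 330, 176, 247 and 247, and in knockdown TICs 317, 20, 222 and 367. As levels these were 2.62, 0.234, 0.705 and 1.35 CPM in parental cells, 14.9, 5.68, 3.02 and 2.98 in TICs and 12.2, 0.883, 2.93 and 5.17 in knockdown TICs. TICs were above parental cells of the same line in 4 of 4 lines. The 2 states did not overlap, though narrowly: the highest parental value was 2.62 (H1703) and the lowest TIC value 2.98 CPM (CALU). KRT15 was the member of smallest p among the 11 tested, and the share of all genes with this pattern was not counted. The ratio within a line was 5.67 in H1703 (95% counting interval 4.38 to 7.43), 24.3 in H1299 (12.5 to 54.0), 4.29 in CHAGO (3.13 to 5.99) and 2.21 in CALU (1.76 to 2.77). Over the lines the log2 fold change was 2.70 ± 0.78 (SE, edgeR adjusted p = 0.240, DESeq2 adjusted p = 0.00805), so the call rests on the tool. Against parental cells the knockdown TICs were higher in 4 of 4 lines (2.04 ± 0.73, edgeR adjusted p = 0.347). Compared with TICs instead, the H1299 knockdown TICs stood apart from the other lines, with 20 reads against 176, lower by a ratio of 6.44 (4.04 to 10.8).

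The direction of the other tested keratins varied from line to line in that comparison. KRT7 was lower in TICs in 3 lines, including CALU with 50.5 against 229 CPM, and equal at 0 reads in H1703 (-1.498 ± 0.80, SE, edgeR adjusted p = 0.509). KRT8 was higher in TICs of H1299 and CHAGO, each by about the same factor of 2.18 and 2.07, and lower in CALU by 1.67 (0.21 ± 0.60, edgeR adjusted p = 0.9303). KRT19 was higher by 7.64 in CHAGO (7.03 to 8.32) and lower by 1.57 in CALU (1.53 to 1.60), for a fitted 0.12 ± 1.11 (edgeR adjusted p = 0.982). KRT18 was higher in CHAGO only among the lines, by 1.58, and lower in the other 3 (-0.63 ± 0.51, edgeR adjusted p = 0.685). KRT80 had -0.36 ± 0.77 and KRT10 -0.58 ± 0.59 (edgeR adjusted p = 0.902 and 0.759). For KRT16 (1.83 ± 2.79), KRT17 (-4.53 ± 3.31), KRT34 (-5.20 ± 2.99) and KRT81 (1.42 ± 2.94) the errors spanned several doublings, and the edgeR adjusted p ran from 0.559 to 0.898.

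**Figure D3:**
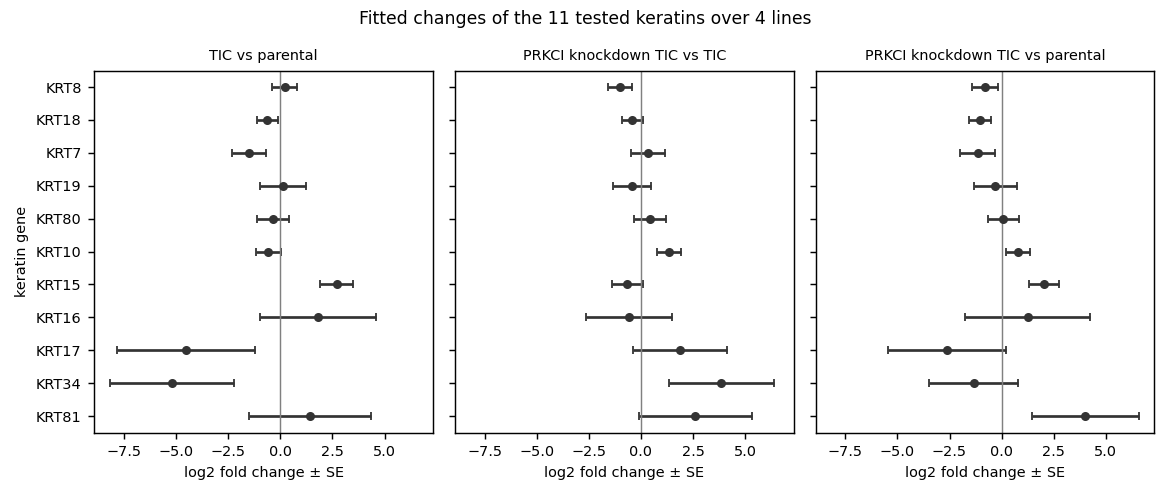
Fitted log2 fold change with its standard error (bars) for the 11 tested keratins in the 3 comparisons of states, from edgeR over 4 lines. KRT15 lies at 2.70 in TICs against parental cells, and the widest errors belong to KRT16, KRT17, KRT34 and KRT81.

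PRKCI knockdown in TICs left 0 of the 11 keratins past the threshold in edgeR, against 0.0143% of all genes (2 of 14008), and DESeq2 and limma also called 0, against 0.0851% and 0.00714%. KRT10 was the 1 member with an unadjusted p under 0.05, against 4.28% of all genes. Its level in knockdown TICs against TICs was 22.4 against 24.8 CPM in H1703, 2.96 against 0.258 in H1299, 33.1 against 11.2 in CHAGO and 12.1 against 4.95 in CALU. That made it higher in 3 of 4 lines, by 11.4 in H1299 (95% counting interval 5.49 to 27.6), 2.96 in CHAGO (2.74 to 3.20) and 2.45 in CALU (2.17 to 2.76), and the fitted log2 fold change was 1.34 ± 0.60 (SE, edgeR adjusted p = 0.980). The unadjusted threshold was no longer met when H1299, CHAGO or CALU was left out.

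KRT18, KRT8 and KRT19 had lower values with the knockdown without passing the test. KRT18 was lower in 4 of 4 lines, though H1299 differed little (20.1 against 20.2 CPM) and CHAGO by a ratio of 1.13 (-0.42 ± 0.50, SE, edgeR adjusted p = 0.981). KRT8 was lower in the 3 lines that expressed it, by 2.40 in H1299 (1.82 to 3.20), 1.30 in CHAGO (1.26 to 1.34) and 3.40 in CALU (3.11 to 3.74), for -0.996 ± 0.58 over the lines (edgeR adjusted p = 0.980). KRT19 was lower by 1.36 in CHAGO and 1.35 in CALU (-0.42 ± 0.93, edgeR adjusted p = 0.993). KRT7 had 0.34 ± 0.83, KRT80 0.44 ± 0.78, KRT15 -0.66 ± 0.75, KRT16 -0.58 ± 2.08, KRT17 1.89 ± 2.26, KRT34 3.85 ± 2.52 and KRT81 2.60 ± 2.70, with edgeR adjusted p from 0.980 to 0.993. The median over the 11 was 0.34, against -0.01 for all tested genes.

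Between knockdown TICs and parental cells, edgeR again called 0 of 11 keratins, against 0.0357% of all genes (5 of 14008), and 1, KRT15, had an unadjusted p under 0.05 against 10.7%. DESeq2 and limma called 0, against 3.38% and 0.143% of all genes. This comparison shares its knockdown libraries with the one against TICs and its parental libraries with the first. KRT18 stood at -1.05 ± 0.52 (SE, edgeR adjusted p = 0.503), lower in 3 lines and higher in CHAGO. KRT10 was higher in 4 of 4 lines at 0.76 ± 0.57 (edgeR adjusted p = 0.693). KRT8 (-0.79 ± 0.62), KRT7 (-1.16 ± 0.85) and KRT19 (-0.30 ± 1.05) were higher in at most 1 line each. KRT80 had 0.08 ± 0.74, KRT16 1.24 ± 2.999, KRT17 -2.64 ± 2.83, KRT34 -1.35 ± 2.12 and KRT81 4.02 ± 2.57 (edgeR adjusted p from 0.653 to 0.980). Over the 3 comparisons, 19 of the 33 fitted fold changes of keratins turned sign under at least 1 other setting.

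Nearly all reads of the activated keratins in TICs came from CHAGO. KRT6A, the type II keratin of wounded and hyperproliferative epidermis, had 17 reads in CHAGO parental cells, 1657 in TICs and 3300 in knockdown TICs (0.255, 20.3 and 43.6 CPM), and 0 in the other 9 libraries. The ratio of TICs to parental cells was 79.5 (95% counting interval 49.5 to 137) and that of knockdown TICs to TICs 2.15 (2.03 to 2.28). KRT16, its type I partner, had 33, 536 and 1211 reads (0.495, 6.56 and 16.0 CPM), and outside CHAGO only 8 in H1299 TICs and 3 in CALU parental cells. KRT6A over KRT16 was 0.515 in CHAGO parental cells, 3.09 in TICs and 2.73 in knockdown TICs. There is 1 CHAGO library per state, so these ratios have no replicate and compare libraries.

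KRT75, a type II keratin of the hair follicle companion layer, had 0, 1276 and 606 reads in the 3 CHAGO libraries and none elsewhere. TICs were at least 347-fold higher than parental cells, with the parental library set at 3 reads, and knockdown TICs were lower than TICs by 1.95 (1.77 to 2.15). KRT17, an activated type I keratin, had 28, 264 and 873 reads in CHAGO (0.420, 3.23 and 11.5 CPM). It differed from the rest of this group in CALU, where parental cells had 578 reads (6.67 CPM) and TICs and knockdown TICs 3 and 15. H1703 and H1299 had none. The basal pair was lower still: KRT5 had 1, 32 and 191 reads and KRT14 0, 43 and 187 in CHAGO, at most 2.52 and 2.47 CPM. In CALU, KRT5 had 2, 16 and 1 reads and KRT14 170, 0 and 0, so that the CALU parental library held the type I gene at 1.96 CPM with almost none of the type II gene. KRT5 over KRT14 was 0.744 in CHAGO TICs and 1.02 in knockdown TICs.

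**Figure D4:**
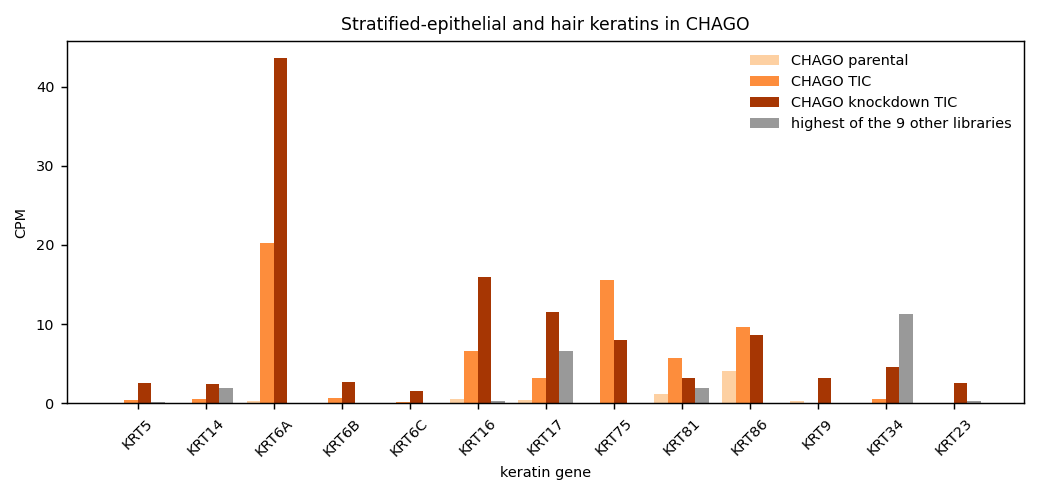
Level (CPM) of 13 stratified-epithelial and hair keratins in the 3 CHAGO libraries (orange shades) and the highest of the 9 other libraries (grey). KRT6A reaches 43.6 CPM in CHAGO knockdown TICs and is at 0 outside CHAGO, while KRT34 is higher in a library of another line.

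KRT6B (0, 55 and 207 reads in CHAGO) and KRT6C (0, 16 and 116) followed KRT6A in order of state. Their coding sequences are identical to that of KRT6A over 97.5% and 97.9% of aligned bases, so some of these reads may belong to KRT6A, and KRT14 and KRT16 share 85.2%. Of the hair keratins, KRT81 had 75, 466 and 246 reads in CHAGO (1.13, 5.70 and 3.25 CPM) and 4, 0 and 141 in CALU. KRT86 had 270, 790 and 657 in CHAGO and 3 reads elsewhere. The pair share 90.1% of coding bases and overlap on opposite strands, and KRT86 also overlaps KRT7 on the same strand. KRT34 had 4, 50 and 352 reads in CHAGO, 972, 0 and 349 in CALU and 11 in H1299 parental cells, so its highest level, 11.2 CPM, was in CALU parental cells and not in CHAGO. KRT32 was the 1 hair keratin seen in H1703, with 5, 35 and 15 reads. KRT33B, KRT37, KRT31, KRT83 and KRT85 had at most 31 reads in any library.

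Other genes of stratified epithelium differed in direction in CHAGO. Of 22 cornified genes 11 had higher values in both TIC libraries than in parental cells, 2 lower (TGM1 and TGM3) and 2 no read. Of 18 epithelial regulators 10 were higher in both and 7 lower, among them SOX2 (17.03, 5.57 and 2.35 CPM), TFAP2A (206, 184 and 153) and GRHL2. The share of all genes higher or lower in both CHAGO TIC libraries was not counted, so these counts are not read as a trait of either list. The 4 genes that follow were chosen for their high values. TP63 stood at 4.26, 36.2 and 43.9 CPM in parental cells, TICs and knockdown TICs (3.05, 45.2 and 2.73 in CALU), SPRR1B of the cornified envelope at 0.0150, 10.6 and 19.3, the kallikrein KLK5 at 0.0750, 10.8 and 8.01, and the epithelial transcription factor OVOL1 at 0.240, 13.6 and 16.3. The 22 cornified genes summed to 11.96, 51.2 and 67.4 CPM (135, 28.0 and 15.4 in CALU), although loricrin (LOR) reached only 0.317 and KRTDAP and CRNN had no read. FLG alone gave 127, 0.109 and 8.19 CPM of the CALU sums, so the fall from parental cells to TICs there is that of FLG. SBSN, by contrast, stood at 0, 16.3 and 1.14 CPM in CALU. Markers of other cell types moved in the same libraries: the 11 leukocyte markers summed to 2.36, 101 and 151 CPM, of which CD68 alone gave 0.0900, 97.1 and 145, with PTPRC at or below 0.360. The 10 fibroblast markers summed to 38.5, 4.77 and 2.39 CPM, of which COL3A1 alone gave 32.3, 2.29 and 0.515. The 8 endothelial markers summed to 4.92, 8.36 and 11.4 CPM. The part of these markers in the keratin values was not tested. In CALU, where simple keratins were lower in TICs, the fibroblast markers summed to 644, 1624 and 520 CPM, the endothelial ones to 34.8, 68.5 and 24.5 and the leukocyte ones to 244, 448 and 274, and their part was not tested either. COL1A1 alone gave 548, 1340 and 301 CPM of the CALU fibroblast sums. Other members differed in direction there, with FAP at 3.76, 94.7 and 125 CPM and THY1 at 21.8, 6.05 and 0.944.

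Of the 18 epithelial regulators, 15 were higher in CHAGO than in CALU in all 3 states. EHF was lower in all 3 (123, 300 and 161 CPM against 199, 374 and 766), and TP63 and ELF5 varied by state. The share of all genes higher in CHAGO than in CALU in all 3 states was not counted. The 15 of 18 is therefore not read as a trait of the regulators. VIM, the intermediate filament of mesenchymal cells, stood at 0, 1.98 and 0 CPM in CHAGO and at 3465, 2079 and 1173 in CALU, between 618 and 793 in H1703 and between 1134 and 1480 in H1299. CALU thus had KRT7, KRT19 and VIM all above 50 CPM in every state. GRHL2, a transcription factor that maintains epithelial genes, was at 77.5, 54.4 and 54.9 CPM in CHAGO and had no read in the other 9 libraries. ESRP1, an epithelial splicing factor, was at 172, 220 and 223 in CHAGO, at 0 in CALU and at most 19.2 elsewhere. ZEB1, a repressor of epithelial genes, was at 19.2, 9.76 and 7.70 in CHAGO and between 111 and 367 in the other 9 libraries. DSP, which anchors keratin filaments to desmosomes, was high in CHAGO (1344, 1386 and 1468) and in H1703 (405, 785 and 717), the line with the lowest simple keratins, but at most 17.7 in CALU. SOX2 was at 0 in CALU and highest in H1299 TICs (38.8 CPM).

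**Figure D5:**
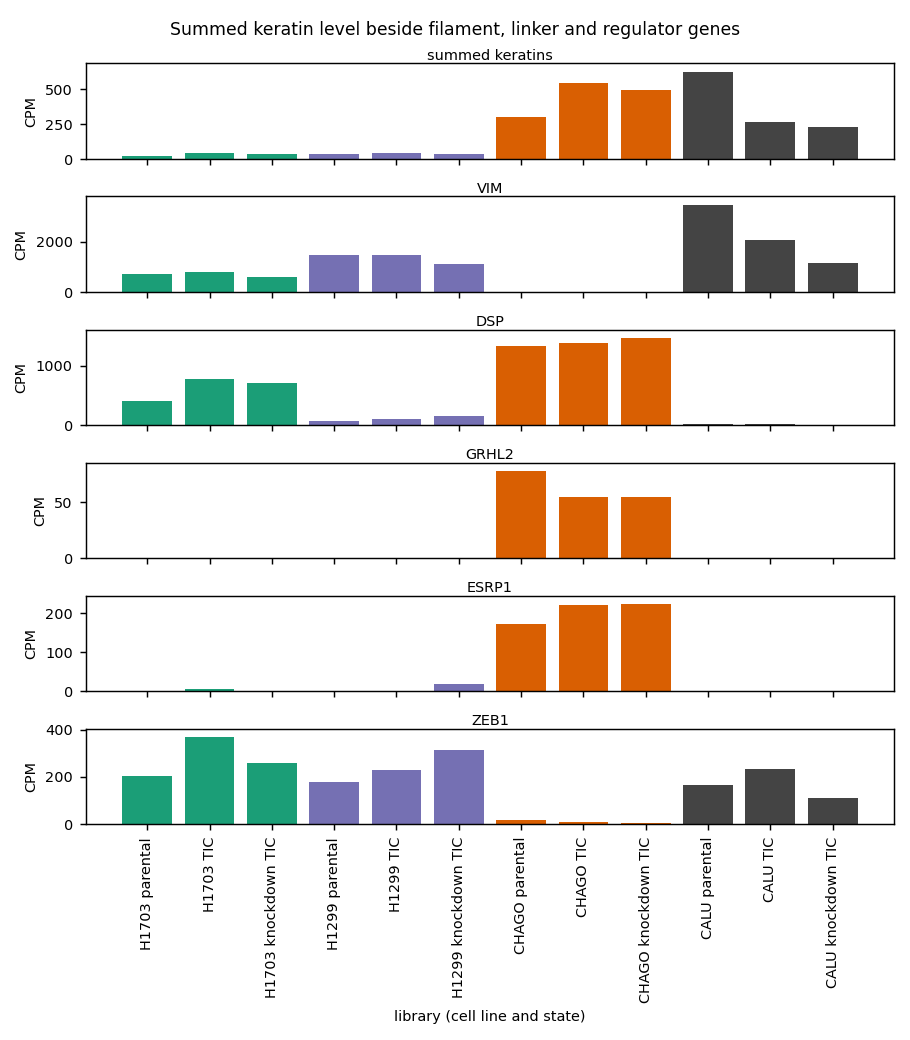
Summed keratin level, VIM, DSP, GRHL2, ESRP1 and ZEB1 (CPM, each panel from 0) in 12 libraries coloured by line. CHAGO has keratins with GRHL2 and ESRP1 and almost no VIM, and CALU has keratins with VIM and no GRHL2.

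None of the companion lists had a gene past the edgeR threshold in a comparison of states. Over 16 other intermediate filament genes 11 were tested, and in TICs against parental cells 6 were higher and 5 lower (median log2 fold change 0.51, all genes -0.02). LMNB1, a nuclear lamin of proliferating cells, was lower in 4 of 4 lines (-1.25 ± 0.35, SE, edgeR adjusted p = 0.232), and LMNB2 in 3 (-1.10 ± 0.49, 0.416). Of 12 linker genes, which tie keratins to junctions and to other filaments, 11 were tested, with 7 higher and 4 lower (median 0.27), led by PKP2 (-0.85 ± 0.53, edgeR adjusted p = 0.577) and PLEC (0.68 ± 0.44, 0.601). Of the cornified genes 9 of 22 were tested, 8 higher and 1 lower (median 1.97), led by SBSN (10.54 ± 2.63, edgeR adjusted p = 0.247) and SPRR2D (7.30 ± 2.27, 0.314), each with reads in TICs of 2 lines. In parental cells SBSN was at 0 and SPRR2D at most at 0.0115 CPM. Both met the filter through TIC and knockdown TIC libraries and could only come out higher, so their fold changes are not measured ratios and they add to the count and the median. Of 18 epithelial regulators 13 were tested, 8 higher and 5 lower (median 0.74), led by TP63 (3.66 ± 1.20, edgeR adjusted p = 0.283). Of 6 repressors 3 were higher and 3 lower (median -0.10), and TWIST2 was lower in 4 of 4 lines (-5.28 ± 1.68, edgeR adjusted p = 0.276), followed by SNAI1 (2.28 ± 1.73, 0.660). TWIST2 stood at 3.85, 0.364, 2.22 and 3.35 CPM in parental cells of H1703, H1299, CHAGO and CALU. In TICs it stood at 0, 0, 0.551 and 0.0483. It met the filter mainly through parental and knockdown TIC libraries, which favoured a lower value in TICs, so its fold change is not a measured ratio. The marker lists had medians of 1.26 for the 3 squamous, 1.22 for the 3 glandular, -0.63 for the 4 leukocyte, -0.92 for the 7 fibroblast and -0.41 for the 3 endothelial genes tested. Among the glandular genes, NAPSA was at 0 CPM in all parental libraries and met the filter through TIC and knockdown TIC libraries. It could only come out higher and adds to that median, while MUC1 had 1.22 ± 1.03 and NKX2-1 -0.83 ± 1.36.

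With PRKCI knockdown in TICs, the median log2 fold change was -0.67 for other filaments, -0.07 for linkers, -0.58 for cornified genes, -0.27 for regulators and 0.79 for repressors, against -0.01 for all genes. The genes of smallest p were INA (0.85 ± 0.34) and LMNA (-0.77 ± 0.34) among filaments, PLEC (-0.99 ± 0.43) and MACF1 (0.29 ± 0.25) among linkers, TFAP2A (-1.02 ± 0.41) and SOX2 (-1.95 ± 1.38) among regulators, and SNAI2 (2.05 ± 0.75) and TWIST2 (3.26 ± 1.58) among repressors, each with an edgeR adjusted p of 0.980. PLEC, LMNA and TFAP2A were lower in 4 of 4 lines and MACF1 higher in 4 of 4. TWIST2 was at 0 CPM in TICs of H1703 and H1299 and at most at 0.551 CPM in TICs of CHAGO and CALU, so its fold change is not a measured ratio. IVL (4.68 ± 2.76) and SPINK5 (3.57 ± 2.26) had the smallest p among cornified genes. In CHAGO TICs IVL was at 0.0367 and SPINK5 at 0 CPM, so both fold changes rest in part on values at the floor. Against parental cells, the knockdown TICs had LMNB1 lower in 4 of 4 lines (-1.92 ± 0.35, edgeR adjusted p = 0.139), SNAI2 higher in 3 (2.45 ± 0.72, 0.301) and SBSN higher in 3 (9.96 ± 2.61, 0.286). SBSN was at 0 CPM in all parental libraries, so its fold change is not a measured ratio.

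Between lines, 13 of 13 tested regulators, 7 of 11 linkers, 6 of 11 other filaments, 5 of 9 cornified genes and 4 of 6 repressors passed, beside the 45.4% of all genes tested.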

How the data were processed

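Per the labels, RNA came from Qiagen RNeasy columns and libraries from NuGen reagents. The submitters' processing notes name CASAVA 1.4, TopHat 1.4, HTSeq 0.5.3p3 and the build hg19, without their roles or settings. The authors deposited raw counts per gene for 12 libraries and, separately, mode-normalized values, which were treated as a score: each library's counts times 1 factor, rounded to whole numbers. One column name, that of the CALU knockdown library, differs from the sample title by a letter.

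From the counts, edgeR 4.0.16 (R 4.3.3) fitted the quasi-likelihood model with TMM factors, filterByExpr and terms for state and line to all 12 libraries (6 residual degrees of freedom), with Benjamini-Hochberg adjustment over 14008 genes at 0.05. DESeq2 1.42.0 on the same genes and limma 3.58.1 on log2(score + 1) of the authors' mode-normalized values were alternatives. Libraries of the same line share a cell line, which pairs them: their deviations from the state means correlated at 0.553 to 0.760 (12 pairs), against -0.414 to -0.0601 for pairs differing in line and state (36 pairs), so line was kept as a block. No 2 columns were identical. The scripts were tested on simulated data.

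CPM is a count over the library size times its TMM factor. Intervals within a line are exact binomial ones on the 2 libraries' counts and, like the Wilson intervals of shares, cover counting error at 95% only. A ratio against 0 reads used 3 reads in the empty library, and partner ratios needed 10 reads of each gene. Lengths, overlaps and coding identities come from GENCODE 29, whose build is not that of the files, so none of its coordinates are given.

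The members and lists were chosen with earlier results of these data known. Values in every library are given for tested members reaching 10 CPM and for KRT5, KRT14, KRT6A, KRT13 and KRT10, and fold changes for all 11 tested members. KRT75, KRT81, KRT86, KRT9 and the further CHAGO genes (SPRR1B, KLK5, OVOL1) were added after their values were seen. Of other lists, the genes of smallest p were named, except 1 that is not reported here.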

Additional observations from a re-analysis of the deposited data

Results flagged for a closer look

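In several states 1 line lay far above the other 3. Of 43 groups of 4 lines examined (15 keratins by state, with at least 10 reads in some library), 20 held a line whose gap to the next was most of the group's range. Chance flags about 1 in 20 groups of normal values, a rate that does not apply here: in 10 of the 20 the other 3 lines were all at 0. CHAGO was the high line in 16 of the 20 and CALU in 4, over 10 keratins. The groups are not independent, since the same CHAGO and CALU libraries recur. The rule was not applied to other genes, so whether 20 of 43 is particular to keratins cannot be told.

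In parental cells CALU was alone at the top for KRT14 (1.963 CPM, all other lines 0), KRT17 (6.673), KRT19 (236.8) and KRT34 (11.22). CHAGO was alone for KRT6A (0.2550), KRT16 (0.4951) and KRT81 (1.125) in the same state. In TICs CHAGO stood apart for KRT6A (20.27 CPM), KRT16 (6.557), KRT81 (5.701), KRT17 (3.230), KRT34 (0.6117) and KRT14 (0.5261). In knockdown TICs it did so for KRT8 (81.68 CPM, next line 8.089), KRT6A (43.61), KRT16 (16.00), KRT17 (11.54), KRT5 (2.524), KRT14 (2.471) and KRT13 (0.2907). Each of these values is a single library.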

How the results depend on the processing

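No keratin was called between states under any setting except by DESeq2, which called 1 (KRT15) in TICs against parental cells. Over all genes, the 4 calls of that comparison became 512 with DESeq2, 43 with limma on the mode-normalized values, 0 with no replicate block and 0 to 4 with a line or the CALU knockdown library left out. For knockdown TICs against TICs, 2 became 11 with DESeq2, 1 with limma, 0 with a filter of 1 CPM in 4 libraries, 0 with no replicate block, and 0 to 1 with a line or that library left out. For knockdown TICs against parental cells, 5 became 400 with DESeq2, 20 with limma, 8 with DESeq2 size factors, 3 with the 1 CPM filter, 0 with no replicate block and 0 to 2 with a line or that library left out. Between lines, the 9 keratins called were 7 to 12 under the other filters and tools, and became 5 to 9 and the 6359 genes 2342 to 5523 when a state or that library was left out, where fewer libraries remained. The cause was not tested for the other changes. The setting without the CALU knockdown library was chosen after seeing the data.

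Directions turned as follows, on the log2 scale. With no replicate block, TICs against parental cells gave KRT10 0.0445, KRT18 0.0835, KRT19 -0.15 and KRT80 0.34. Without that block, knockdown TICs against TICs gave KRT16 1.23, KRT7 -0.30, KRT80 -0.38 and KRT81 -0.12, and against parental cells KRT17 0.73 and KRT80 -0.0358. DESeq2 gave KRT19 -0.69 in TICs against parental cells, and limma gave KRT34 0.47 in knockdown TICs against parental cells. Leaving out a line or the CALU knockdown library moved the values of TICs against parental cells from -1.22 to 0.73 for KRT19, -1.09 to 0.0486 for KRT80, -0.38 to 5.04 for KRT16, -0.21 to 0.89 for KRT8, -4.88 to 2.65 for KRT17 and -0.0303 to 1.96 for KRT81. Those of knockdown TICs against TICs ran from -0.79 to 1.09 for KRT16, -0.20 to 1.12 for KRT7, -0.24 to 1.15 for KRT80, -0.66 to 2.92 for KRT81 and -1.09 to 0.13 for KRT15. Against parental cells they ran from -2.93 to 4.19 for KRT17, -0.19 to 0.39 for KRT80, -1.61 to 0.30 for KRT19, -1.62 to 0.13 for KRT8 and -0.0836 to 4.33 for KRT81. Summed keratin levels and the count of members detected stayed within the spread between lines, or within 1.5 times, under both other settings.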
